A study of Saccharomyces cerevisiae with 2 samples.

Results

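The small subunit of the cytosolic ribosome of budding yeast contains 32 proteins of the RPS series, RPS0 to RPS31, which are encoded by 56 genes. Each of 24 proteins has a pair of paralogous genes, called A and B, and 8 proteins have a single gene. The members were taken by their systematic ORF names from the deposited table of 6207 ORFs, and all 56 names carried an RPS symbol in RefSeq. Of these 56 genes, 53 had a log2 ratio in both replicates.

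The small subunit binds the mRNA and decodes it against tRNA, while the large subunit joins the amino acids. Growing yeast spends a large part of its transcription on ribosomal protein genes, which are driven as a group by Rap1, Fhl1 and Ifh1 and are known to fall together in many acute stresses. Most of the paralogous pairs descend from a whole-genome duplication, and their proteins are nearly alike, so a probe made from a coding region can bind the mRNA of both copies.

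The samples were cells of the laboratory strain BY4741 with a wsc1 mutation, and whether the gene was deleted is not stated there. Wsc1 is a plasma membrane sensor of cell wall stress, and caspofungin blocks the synthesis of the wall polymer β-1,3-glucan. One part of a culture grown at 24 °C received caspofungin at 15 ng/ml for 2 h, and the other part, also mutant, received none. Each of the 2 deposited columns, called replicates here, compared both RNAs on 2-colour arrays, with the untreated RNA in Cy5 in replicate 1 and the caspofungin RNA in Cy5 in replicate 2.

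The labels mention 2 cultures and 4 arrays, and do not say which of them each column stands for. The spread between the replicates may therefore be technical. The values are log2 of a dye ratio, and neither its direction nor its normalization is stated. Replicate 1 was turned in sign so that caspofungin RNA had the same place in both, and sides are called positive and negative. If the ratio was Cy5 over Cy3, the negative side is lower RNA with caspofungin, and otherwise it is higher RNA. A smaller share of cells expressing a gene and less RNA per cell cannot be told apart. WSC1 itself had no value in either replicate, so the labelled genotype could not be checked on its mRNA.

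Coverage of the small subunit genes was nearly complete. Of the 55 members with an entry, 96.4% had both values, against 50.2% of all ORFs. RPS19A (YOL121C) and RPS30A (YLR287C-A) were blank in both replicates, although their paralogs RPS19B and RPS30B were measured. RPS14A (YCR031C) had no entry of that name. An entry YCR031, which lacks the letter for the strand, stood in its place in the order of names, with turned values of 0.17 and 0.29. It was not counted as a member, because the table does not say that it is RPS14A.

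**Figure D1:**
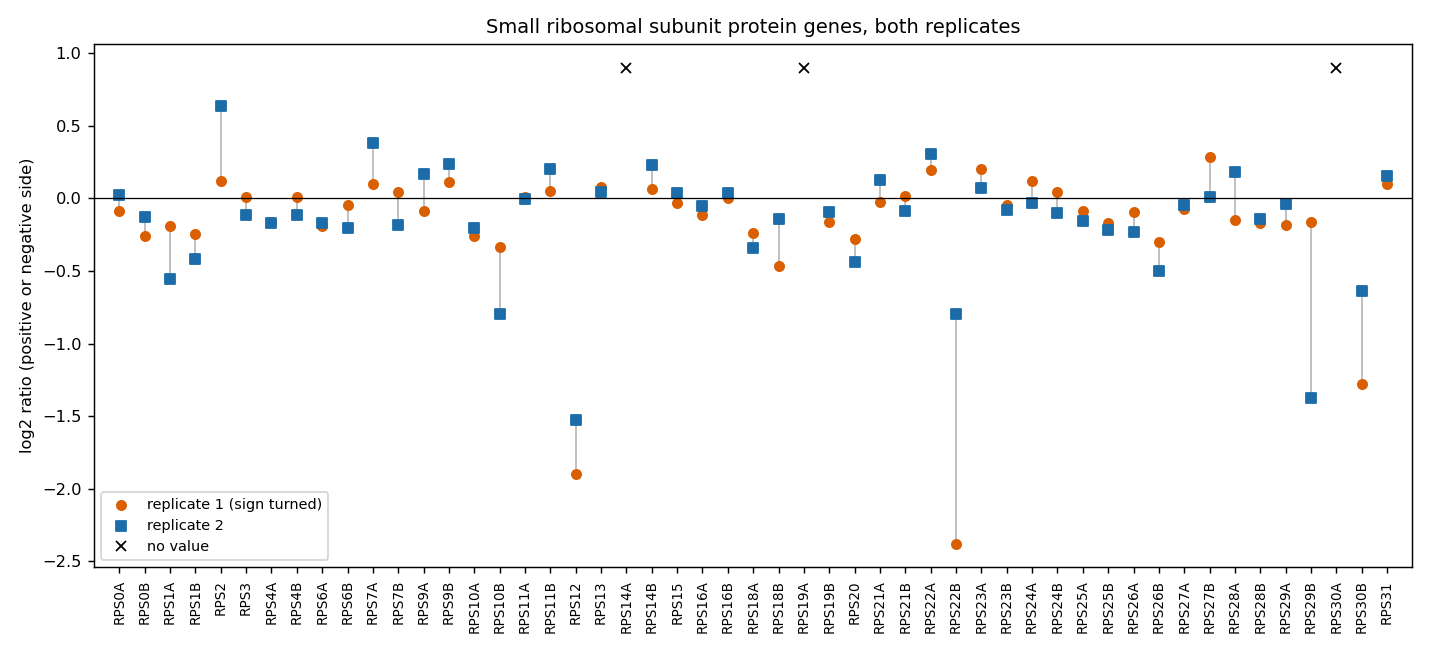
Log2 ratio of each of 51 small subunit protein genes (vertical axis) in replicate 1 after turning (circles) and replicate 2 (squares), joined by a line; crosses mark the 3 genes with no value. RPS12, RPS22B and RPS30B lie apart on the negative side, as do RPS29B and RPS10B in replicate 2, and most other genes lie close to 0.

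Most small subunit protein genes differed little between caspofungin and untreated cells, and a few stood far on the negative side. The median of the mean log2 ratios over the 53 genes was -0.060, against 0.010 over all 3117 ORFs with both values. The members' median was -0.070 in replicate 1 and -0.087 in replicate 2, while the median of all ORFs was 0.035 and -0.042. By the mean, 33 members were negative and 20 positive, beside 1494 and 1623 of the 3117 ORFs. None of the 53 passed limma's test at an adjusted p of 0.05, which called 0% of all ORFs as well, and the lowest adjusted p of a member was 0.366. This count depended on the centring: with each column's median subtracted, 4 members (RPS12, RPS22B, RPS30B and RPS29B) and 3.69% of all ORFs passed. At an unadjusted p under 0.05, limma gave 7 of 53 members (13.2%), close to the 13.4% over all ORFs, and the plain one-sample statistic gave 3 members and 264 of the 3117 ORFs. The 7 were RPS12, RPS22B, RPS30B, RPS10B, RPS26B, RPS20 and RPS1B, all on the negative side.

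By size, the small subunit genes had their extremes on 1 side. Beyond 1.5-fold by the mean, and on one side in each replicate, there were 4 negative members (7.55%) and 0 positive ones, against 3.3% and 0.738% of all ORFs. Beyond 2-fold, RPS12 and RPS22B remained on the negative side (3.77%, against 0.962% of all ORFs), with 0% of members and 0% of ORFs on the positive side. Beyond a mean of 0.32 on the log2 scale there were 9 negative members (17%, against 9.14%) and 1 positive member, RPS2 (1.89%, against 6.8%).

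RPS12 (YOR369C) encodes a protein of the beak, a protrusion of the head of the subunit. Its log2 ratios were -1.90 in replicate 1 and -1.53 in replicate 2. Both values were far outside the range of most members, and the gene had the most negative mean of all 3117 ORFs. The mean of -1.71 ± 0.26 (SD, n = 2) corresponds to 3.28-fold (limma adjusted p = 0.366). No ORF within 3 places of it in the order of names was beyond 2-fold in either replicate. However, 5 of these neighbours were blank in both replicates, so little could be read from them.

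RPS22B (YLR367W) encodes a copy of a body protein that binds the ribosomal RNA, and its intron holds a small nucleolar RNA. Its values were -2.38 and -0.80, both negative, with that of replicate 1 the greater in size. The mean was -1.59 ± 1.12 (SD, n = 2), or 3.01-fold, and ranked 2 of 3117 from the negative end (limma adjusted p = 0.366). Its paralog RPS22A (YJL190C) lay on the opposite side, with 0.20 and 0.30 and a mean of 0.25 ± 0.08 (adjusted p = 0.398). Within 3 places of RPS22B, ARC18, a subunit of the Arp2/3 actin complex, had -1.14 in replicate 1 and -0.15 in replicate 2. Beside RPS22A, 1 place away, the large subunit protein gene RPL39 had -1.07 in replicate 2 and -0.60 in replicate 1. The part of such nearby entries in the members' ratios was not tested.

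RPS30B (YOR182C) encodes a copy of a small body protein near the path of the mRNA. It had -1.28 and -0.64, again greater in replicate 1. Its mean was -0.96 ± 0.45 (SD, n = 2), or 1.94-fold, at rank 39 from the negative end (limma adjusted p = 0.366). With its paralog blank, no comparison within the pair could be made. SER1, an enzyme of serine synthesis 2 places away, had -1.16 in replicate 1 and -0.28 in replicate 2.

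RPS29B (YDL061C) encodes a copy of a zinc-binding protein of the head, and its replicates disagreed most after those of RPS22B. Replicate 1 gave -0.16 and replicate 2 gave -1.37. The mean of -0.77 ± 0.86 (SD, n = 2), or 1.70-fold, was smaller than its SD, and rested on replicate 2 (limma adjusted p = 0.398). RPS10B (YMR230W), with -0.34 and -0.80, had a mean of -0.57, just inside 1.5-fold.

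The order of ORF names was also examined for blank entries. Of the 6 nearest entries, 5 were blank for RPS12, RPS22B and RPS10B, and 4 for RPS30B. The 5 members with 5 or 6 blank neighbours had a median ratio of -0.57 (range -1.71 to 0.050), and the 48 others had -0.054. Over all ORFs these medians were -0.031 for 180 ORFs and 0.012 for 2934 ORFs. The part of blank neighbours in the members' ratios was not tested.

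On the positive side the small subunit genes had low ratios. RPS2 (YGL123W), whose protein lies at the entry of the mRNA channel and affects decoding accuracy, had 0.12 in replicate 1 and 0.64 in replicate 2. Its mean of 0.38 ± 0.37 (SD, n = 2), or 1.30-fold, ranked 138 from the positive end (limma adjusted p = 0.40), and most of it came from replicate 2. RPS7A (YOR096W), a copy of a body protein, had 0.099 and 0.38 and a mean of 0.24 ± 0.20 (adjusted p = 0.436).

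Both replicates ordered the small subunit genes much alike. Across the 53 genes, which share the same arrays, Spearman's rho between the turned replicates was 0.76 and Pearson's r 0.67. Without the 4 genes beyond 1.5-fold, rho was 0.71 and r 0.67 over 49 genes. Over all 3117 ORFs rho was 0.33 and r 0.29, and over 77 large subunit protein genes rho was 0.54 and r 0.64. These are descriptions across genes, which are not independent replicates. The turning of replicate 1 fixes their sign but not their size.

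**Figure D2:**
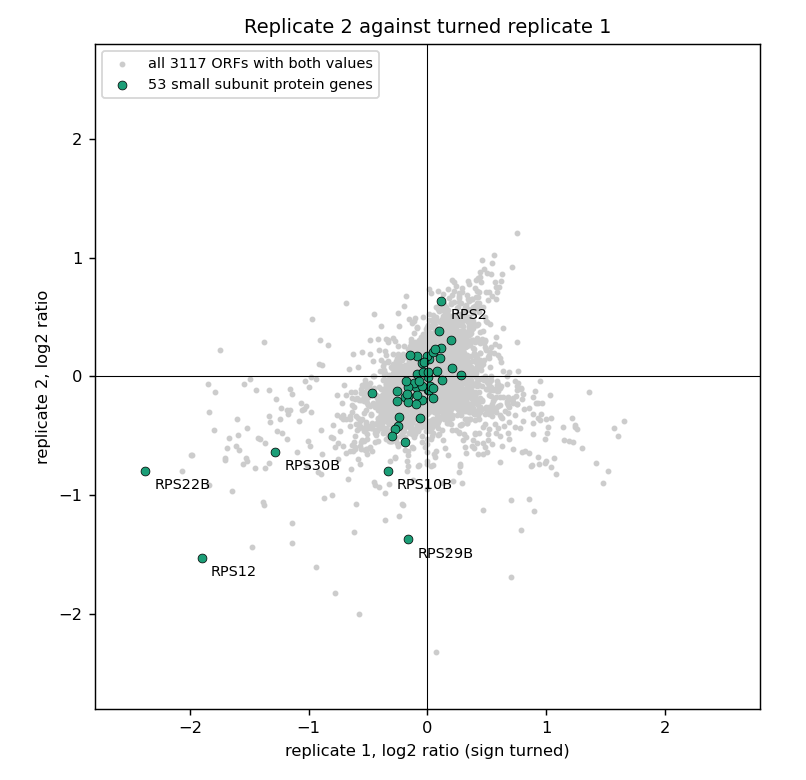
Log2 ratio in replicate 2 (vertical axis) against turned replicate 1 (horizontal axis) for all 3117 ORFs with both values (grey) and the 53 small subunit protein genes (green). The genes form a narrow rising band around 0, with RPS12 far out in both replicates, RPS22B and RPS30B farther out in replicate 1, and RPS29B in replicate 2.

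The sign was the same in both replicates for 39 of 53 members (73.6%, against 64.1% of all ORFs with both values). There were 27 negative ones (50.9%, against 32.4% of all ORFs) and 12 positive ones (22.6%, against 31.6%). Among the positive ones were RPS2, RPS7A, RPS9B, RPS11B, RPS13, RPS22A and RPS31. The median SD between the replicates was 0.095 for the members and 0.133 for all ORFs. The large subunit protein genes leaned to the negative side too: of 77, 38 were negative and 20 positive in both replicates.

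The genes were then described by the place of their proteins in the subunit, a grouping made for this description with the values known and given no test. The head, which forms part of the sites where tRNA meets the subunit, had 15 of 21 measured genes on the negative side and a median of -0.13. The platform, where the mRNA leaves, had 4 of 5 on the negative side and a median of -0.33. These 4 were the A and B copies of RPS1 and RPS26, which are not independent, and RPS14B was positive. The body, which carries the decoding site, had 14 of 27 on the negative side and a median of -0.029. Over all ORFs, 1494 of 3117 were on the negative side.

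**Figure D3:**
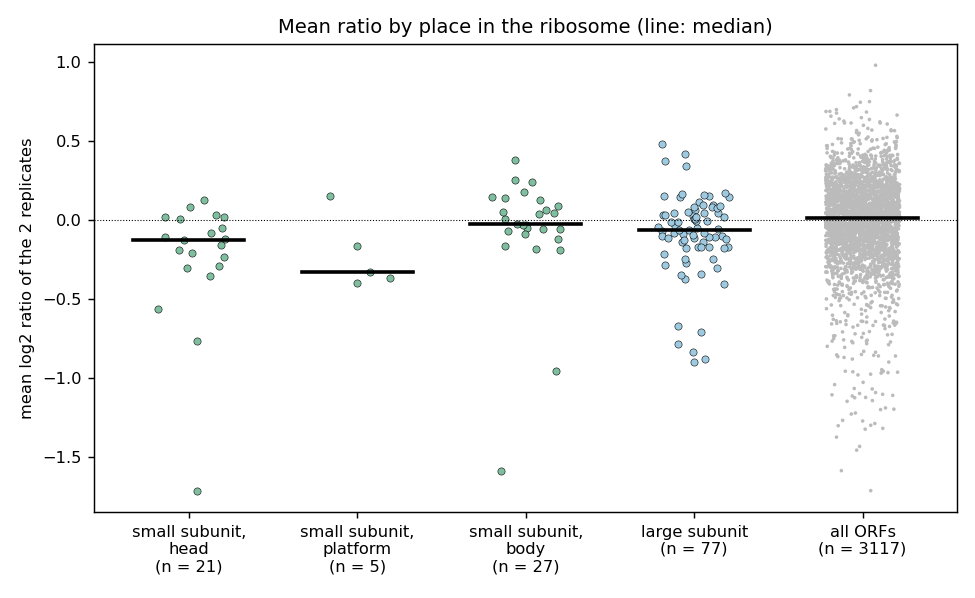
Mean log2 ratio of both replicates (vertical axis) for genes of the head, platform and body of the small subunit, for large subunit protein genes and for all ORFs; each point is a gene and each line a median. The groups overlap widely, and the medians of head, platform and body are -0.13, -0.33 and -0.029, over 21, 5 and 27 genes.

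Among the proteins of the body at the back of the subunit, RPS0A (YGR214W) had -0.089 and 0.020 in replicates 1 and 2, and RPS0B (YLR048W) -0.26 and -0.13. RPS21A (YKR057W), whose protein contacts RPS0, had -0.025 and 0.12, and RPS21B (YJL136C) had 0.018 and -0.083. RPS0B was the lower copy in both replicates, by 0.16 ± 0.015 (SD, n = 2), while the RPS21 copies changed order between replicates.

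The copies of RPS4, RPS6 and RPS7, also in the body, were less extreme than RPS22B. RPS4A (YJR145C) had -0.16 and -0.17, and RPS4B (YHR203C) 0.013 and -0.12. RPS6A (YPL090C) had -0.19 and -0.17, and RPS6B (YBR181C) -0.043 and -0.20. RPS6 is the ribosomal protein phosphorylated in response to TOR signalling, and 4 of 4 values of its genes were negative. RPS7B (YNL096C) had 0.043 and -0.18, below RPS7A in both replicates.

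RPS9 and RPS23 act in the accuracy of decoding. RPS9A (YPL081W) had -0.090 and 0.17, and RPS9B (YBR189W) 0.11 and 0.24. RPS23A (YGR118W) had 0.20 and 0.074, and RPS23B (YPR132W) -0.042 and -0.078, so the RPS23 copies lay on opposite sides in both replicates. The difference between them was 0.20 ± 0.07 (SD, n = 2).

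RPS11A (YDR025W) stood nearest to 0 of all members, with 0.0087 and -0.0030, and RPS11B (YBR048W) had 0.051 and 0.21. The single-copy gene RPS13 (YDR064W), whose protein takes part in a bridge to the large subunit, had 0.078 and 0.044. RPS24, like RPS19, has a human counterpart mutated in Diamond-Blackfan anaemia. RPS24A (YER074W) had 0.12 and -0.031, and RPS24B (YIL069C) 0.044 and -0.10. Both RPS24 copies were positive in replicate 1 and negative in replicate 2, with A above B by 0.074 ± 0.0069. RPS27A (YKL156W), which encodes a zinc-finger protein, had -0.070 and -0.042, and RPS27B (YHR021C) 0.29 and 0.0093. RPS27 gave the greatest difference in which B was above A, mainly through replicate 1.

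On the platform, RPS1 and RPS26 lie beside the exit of the mRNA. RPS1A (YLR441C) had -0.19 and -0.55, and RPS1B (YML063W) -0.24 and -0.42. RPS26A (YGL189C) had -0.096 and -0.23, and RPS26B (YER131W) -0.30 and -0.50. All 8 values of these 4 genes were negative, but as in other pairs, paralogous copies on the same arrays are not independent replicates. RPS14B (YJL191W), whose pre-mRNA is bound and repressed by RPS14 protein in yeast, had 0.066 and 0.23, on the side of the entry YCR031.

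In the head, RPS3 (YNL178W) at the mRNA entry had 0.0067 and -0.11. RPS15 (YOL040C), needed for export of the subunit from the nucleus, had -0.033 and 0.040. Both are single-copy genes close to 0. RPS20 (YHL015W), another single-copy gene, had -0.28 and -0.44. Its protein is ubiquitinated when ribosomes collide, and its mean of -0.36 was among the 9 beyond 0.32 on the negative side. RPS31 (YLR167W), made as a fusion with ubiquitin, had 0.10 and 0.15 and thus lay opposite to its neighbour in the beak, RPS12.

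RPS10A (YOR293W), also of the beak, had -0.26 and -0.21 beside the more negative RPS10B. RPS16A (YMR143W) had -0.12 and -0.052, and RPS16B (YDL083C) 0.0012 and 0.037. RPS16 reaches the tRNA with its tail, and its B copy was above A in both replicates. RPS18A (YDR450W) had -0.24 and -0.34, and RPS18B (YML026C) -0.47 and -0.14. Both RPS18 copies, whose protein touches the large subunit, were negative in both replicates, with their order changed between replicates.

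RPS19B (YNL302C), a head protein gene whose product is needed for maturation of the subunit's RNA, had -0.16 and -0.091. RPS25A (YGR027C) had -0.090 and -0.16, and RPS25B (YLR333C) -0.17 and -0.22. The 4 values of RPS25, a protein that supports initiation at internal ribosome entry sites, were all negative. RPS28A (YOR167C) had -0.15 and 0.18, and RPS28B (YLR264W), whose protein promotes decay of its own mRNA, had -0.17 and -0.14. RPS29A (YLR388W) had -0.18 and -0.039, within the range of most members and apart from RPS29B only in replicate 2.

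The paralog pairs were compared as the A ratio minus the B ratio within each replicate. With 2 values a two-sided exact test cannot give a p below 0.5, so these differences are described without a test. Of 24 pairs, 21 had values for both copies. A was above B by the mean in 14 pairs and B above A in 7. In 16 pairs the difference kept its sign between replicates, with A above B in 11 and B above A in 5. The median size of the difference was 0.16.

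RPS22 had the greatest difference, 2.57 in replicate 1 and 1.10 in replicate 2, with a mean of 1.84 ± 1.04 (SD, n = 2). The next greatest, in RPS29, came from replicate 2 alone, with -0.020 and 1.33. In RPS10 the difference was 0.079 and 0.59, and in RPS7 it was 0.056 and 0.57, again mostly from replicate 2. The RPS26 difference was smaller but repeated well, with 0.20 and 0.27 and a mean of 0.24 ± 0.05.

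**Figure D4:**
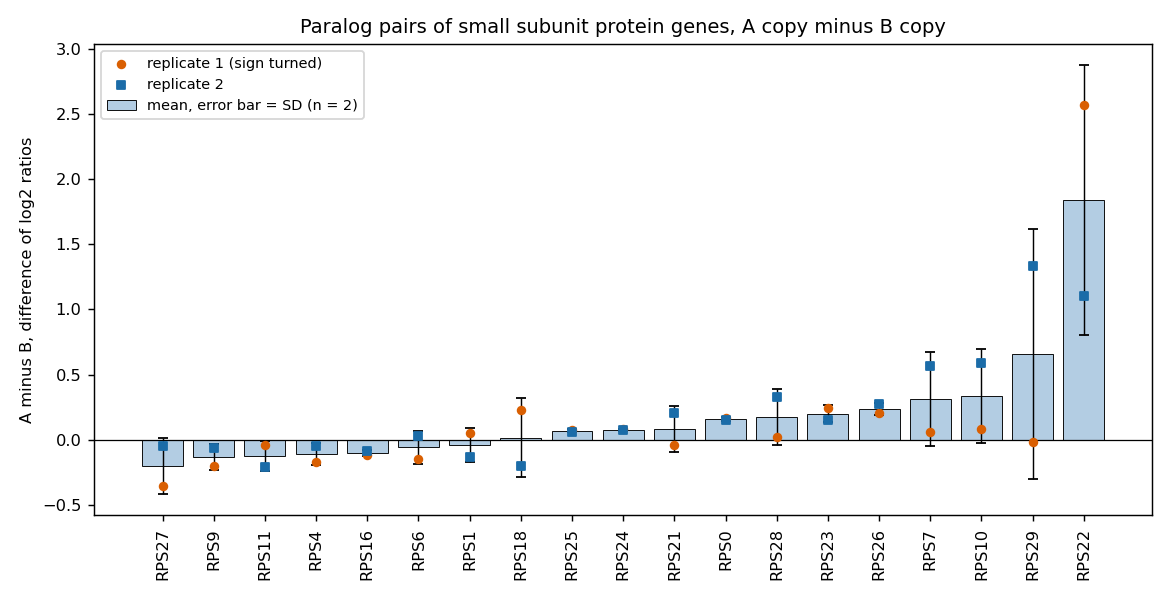
Difference of log2 ratios, A copy minus B copy (vertical axis), for 19 pairs with both copies measured; bars show the mean, error bars the SD (n = 2), circles replicate 1 after turning and squares replicate 2. RPS22 reaches 1.84, and 13 of the pairs shown have a mean difference under 0.2 in size.

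The ratios of A and B copies went together only weakly over the pairs. Pearson's r between A and B means was -0.07 over 21 pairs and 0.49 over the 20 pairs without RPS22, and Spearman's rho over 21 pairs was 0.31. Both copies had negative means in 9 pairs, both had positive means in 2, and 10 pairs lay on opposite sides. By copy, 19 of 24 measured B genes and 11 of 21 measured A genes were negative, and 3 of 8 single-copy genes were. Over all ORFs it was 1494 of 3117. The B genes included RPS19B and RPS30B, both negative, and RPS14B, positive, whose A copies had no values.

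The other parts of the ribosome pathway were read from the same fit. Of the 81 large subunit protein genes, 77 had both values, and their median was -0.063 by the mean, -0.064 in replicate 1 and -0.041 in replicate 2. In replicate 2 the median of all ORFs was -0.042. There were 47 negative and 30 positive genes, and 0 passed limma's test. Of the 77, 58 kept their sign between replicates (75.3%, against 64.1% of all ORFs with both values). At an unadjusted p under 0.05 there were 9 of 77, beside 417 of 3117 ORFs. Beyond 1.5-fold there were 6 negative genes and 0 positive ones of 77, beside 103 and 23 of 3117 ORFs. The small subunit had 4 and 0 of 53. Both subunits thus had their extremes on the negative side, where most ORFs of that size in the whole table also lay. RPL41A, which encodes a very short protein, had a mean of -0.90 ± 0.14 (SD, n = 2). RPL26B had -1.02 and -0.74, and RPL39 is given above with RPS22A. No test of a difference between both subunits was made.

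Assembly factors of the small subunit precursor were measured in both replicates for 8 of 16 genes, and 0 passed. The median was -0.082 by the mean, and none was beyond 1.5-fold. By the mean 7 of 8 were negative, beside 1494 of 3117 ORFs. Replicate 1 alone gave a median of -0.022 and replicate 2 alone -0.10, with 5 of the 8 negative in both. TSR1 (0.38 and -0.58) and LTV1 (0.18 and -0.34) had negative means through replicate 2 alone. Spearman's rho between the replicates was -0.48 over the 8 genes. Another 4 factors had a value in replicate 1 only, positive in NOB1 (0.43), TSR3 (0.30) and PRP43 (0.018) and negative in DIM1 (-0.083), and 4 were blank. Chaperones dedicated to single proteins of the subunit had 3 of 4 negative, a list too short to set against the share over all ORFs, and 0 passed. YAR1, the chaperone of RPS3, had -0.38 and -0.29, and FAP7, which acts on RPS14, had -0.27 and -0.34. TSR2, the chaperone of RPS26, had -0.057 and -0.23. RPS26 genes were negative in both replicates, as was TSR2, whereas FAP7 lay opposite to RPS14B, and RPS3 changed sign between replicates where YAR1 was negative in both. TSR4, the chaperone of RPS2, had a value only in replicate 1, of 0.32 after turning. Of the proteins bound to the mature ribosome, ASC1, a small subunit protein outside the RPS series, had 0.15 and 0.37, and STM1, which clamps idle ribosomes, had -0.13 and -0.15.

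Of 12 regulators of ribosomal protein genes, 5 had both values and 0 passed. RAP1, SFP1, HMO1 and TOD6 were blank in both replicates, and FHL1, IFH1 and SCH9 had a value only in replicate 1, of 0.34, 0.36 and 0.29 after turning. YAK1, a kinase that represses ribosomal protein genes through the corepressor Crf1, had -0.50 and -0.44 (mean -0.47 ± 0.05, limma adjusted p = 0.366). CRF1 had 0.27 in both replicates (adjusted p = 0.385). DOT6, a repressor of ribosome biogenesis genes, had 0.23 and 0.19.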

How the data were processed

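Per the labels, total RNA was labelled with Cy5 or Cy3 as cDNA and hybridised in pairs. The authors deposited 1 log2 ratio of the 2 dyes per ORF and column, but how they corrected background, normalized the arrays and set blanks is not stated in the labels. In each column 100% of the values, taken as powers of 2, had at most 4 decimals (tolerance 0.001 of the last), which fits log2. Each SD rests on 2 values.

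Replicate 1 was multiplied by -1. The 3117 ORFs with both values entered a limma 3.58.1 fit (R version 4.3.3, lmFit and eBayes) that compared each mean with 0, two-sided, with Benjamini-Hochberg adjustment over all of them at 0.05. Simulated data of 3117 genes served to check the script. RefSeq R64 gave symbols for 5654 of 6207 ORFs; 2 control entries were left out. No coordinates are printed because the array's build is not given. Members and lists were chosen with earlier results of these data known. Full statistics are given for members that were beyond 1.5-fold and on one side in each replicate, and for the 3 most extreme on each side. Of the large subunit and assembly lists up to 3 genes beyond 1.5-fold are named, and of the short lists up to 3 by size. ORFs within 3 places of a named member and beyond 2-fold are named with it. RPS10B, TSR4 and the assembly factors and regulators with missing values were named after their values were seen. Some members entered every fit, count and median but are not reported singly here.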

Additional observations from a re-analysis of the deposited data

How the results depend on the processing

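The alternatives planned were the turning, centring and scaling of the columns, the limma prior, the filter on blanks, the size threshold and leaving out a replicate. The reading of YCR031 and those for the agreement of the columns, the paralog pairs and the other lists were chosen after seeing the data. After subtraction of each column's median, 115 ORFs (3.69%) passed, with 4 members (7.55%), RPS12, RPS22B, RPS29B and RPS30B. With columns also scaled it called 103 ORFs (3.3%) and 3 members (5.66%), without RPS29B. Centring raised the prior degrees of freedom of limma from 2.64 to 17.1; the cause was not tested. The robust prior, ORFs with a value in at least 1 column, the plain statistic and the unturned columns gave 0 ORFs past the threshold, where limma as used had 417 at an unadjusted p under 0.05, the robust prior 415 and the plain statistic 264. With no column turned, 0 members were beyond 1.5-fold, 14 had the same sign in both columns, 5 paralog pairs kept the sign of their difference, rho between the columns was -0.76, and 19 of 53 means changed sign. The members' median was then 0.013 and that of the large subunit genes 0.0035, while the regulators had -0.020. RPS12 had 0.19, RPS22B 0.79 and RPS30B 0.32. These follow from the sign alone. Members beyond 2-fold numbered 2, and beyond 0.32 on the log2 scale 10. Leaving out each replicate gave a members' median of -0.087 to -0.070 and a regulators' median of -0.10 to 0.23. Centring, scaling, averaging of pairs, leaving out extreme members or those near another extreme ORF, and counting YCR031 as RPS14A moved the median to between -0.062 and -0.052. No paired analysis was possible because both columns belong to 1 group, and each ratio already pairs both RNAs.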

Other observations

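The control entry named 3XSSC had deposited log2 ratios of -0.12 and -0.17 in replicates 1 and 2, and the entry named Arabidopsis had 0.29 and 0.28. Each kept its deposited sign when the dyes were exchanged, unlike RPS12 and most small subunit protein genes, whose deposited signs were opposite in 39 of 53 cases.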
